A study of Mus musculus with 6 samples.

Results

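Axon guidance ligands and receptors were examined in the hippocampus of mice given methamphetamine (MA), a psychostimulant, and of mice given saline. The members were taken by name as all rows for the semaphorins of classes 3 to 7, the plexins, both neuropilins, the ephrins, the Eph receptors, Slit1 to Slit3, Robo1 to Robo4, the netrins, the Unc5 receptors and Dcc. They came to 71 of the 16060 gene rows of the deposited table, with 68 gene symbols and 70 Ensembl identifiers. Adult male C57BL/6 mice were injected intraperitoneally with saline (Control) or with MA in escalating doses, 5 mg/kg in the first week, 10 mg/kg in the second and 15 mg/kg in the third. Behavior was tested on day 22 and the mice were killed directly afterwards. The age in weeks is not stated in the sources used here. RNA of the hippocampus was sequenced in 3 samples per group, labelled Control and MA replicates 1 to 3, with 1 library each. Neither the labels nor the methods say that each sample came from a different mouse, so p-values measure the spread between these samples. No library depth was given in the sources used here, so no interval for counting error could be set.

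Semaphorins, ephrins, Slits and netrins are cues that steer growing axons by attraction or repulsion. Semaphorins are read by plexins and, for most of the secreted class 3, by neuropilins. Ephrins are read by Eph receptor tyrosine kinases, Slits by Robo receptors, and netrins by Dcc and Unc5 receptors. In the adult hippocampus many of these genes remain expressed and are known for roles in mossy fiber pruning, dendritic spines and synaptic plasticity.

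None of the members differed between the groups at the adjusted threshold of 0.05 (limma, Benjamini-Hochberg over the 13321 rows tested), which 0.263% of all tested rows passed. Among the members, 67 rows passed the filter on low values and were tested. The smallest adjusted p among the members was that of Plxnb1 (limma adjusted p = 0.1201). At an unadjusted p under 0.05, 4 members were higher in the MA libraries (Plxnb1, Sema3b, Sema4g and Sema6b), which is 5.97% of the tested members against 4.99% of all tested rows. At the same threshold 5 members were lower (Epha5, Ephb1, Epha2, Robo2 and Epha7), which is 7.46% against 5.46%. Epha2 passed the filter on low values (a linear value of at least 0.5 in at least 3 libraries) only through its 3 Control libraries, so it could enter the test only as lower in MA. Without rows of that kind 4 of 66 members were lower, or 6.06% against 5.39%. Both shares lay near the background, and nothing particular to these genes can be read from them. The median log2 fold change was -0.049 over the tested members and -0.010 over all tested rows. The mean was lower in MA for 37 of the 67, or 55.2%, against 52.7% of all tested rows. The direction of the median turned without MA replicate 3, where it was 0.015 and 32 of the 67 means were lower, and with limma's sample quality weights, where it was 0.030 and 31 were lower. A log2 fold change here is the mean of the MA libraries minus the mean of the Control libraries, on the scale of the deposited log2 values, and it understates the change of genes with low levels. As this is bulk tissue, fewer cells of a type and less RNA per cell cannot be told apart.

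**Figure D1:**
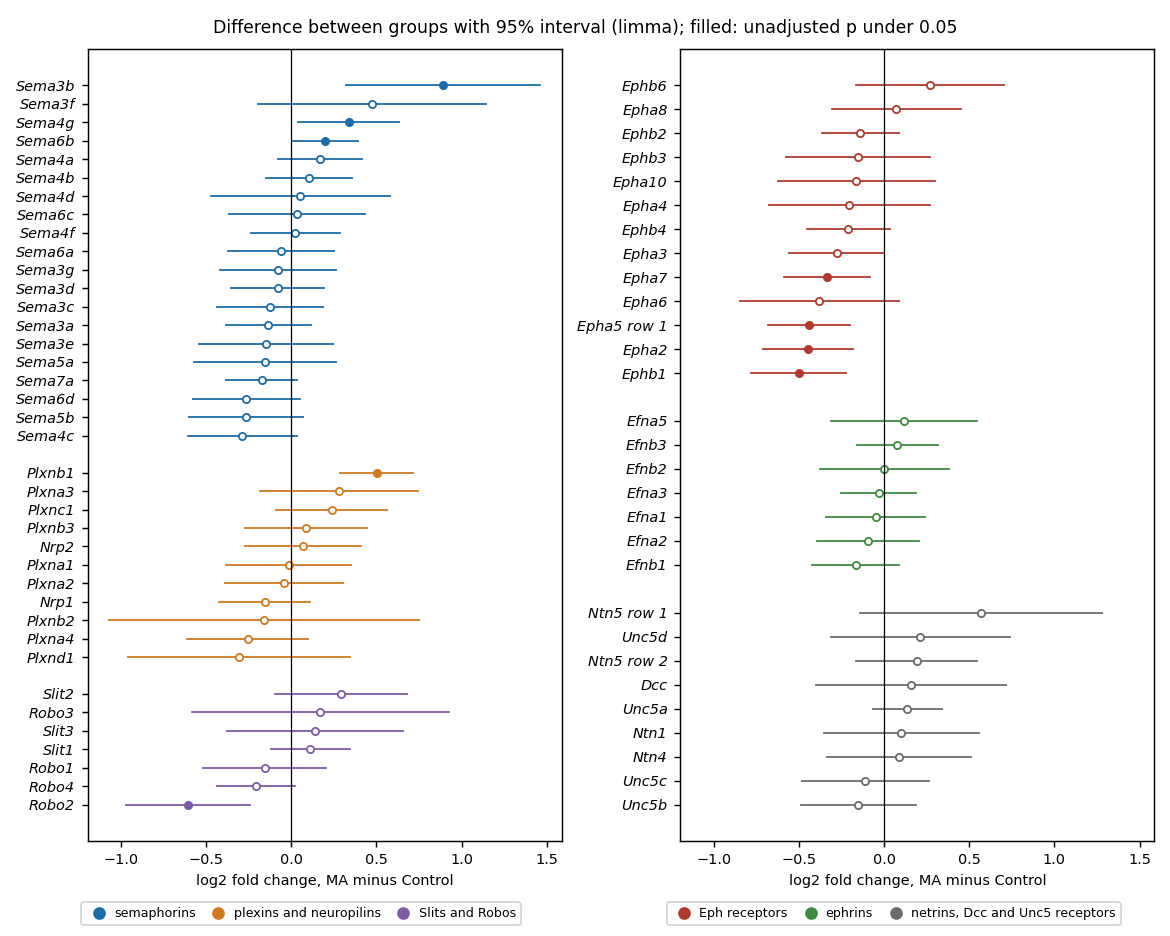
Log2 fold change of each tested member (MA minus Control, x axis) with the 95% interval from limma, grouped and colored by family; filled points had an unadjusted p under 0.05. Of 13 Eph receptor rows 11 lie left of 0, and none of the 67 rows passed the adjusted threshold; Epha5 row 1 is the tested one of both Epha5 rows, and the tested Ntn5 rows are rows 1 and 2.

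Levels are described first, on the linear scale obtained by reversing the log2 transform and the offset of 1, which is per gene length. Sema7a, a membrane-anchored semaphorin, had the highest mean level of all members at 47.2. It was followed among the ligands by Efna3 at 46.4, Efnb3 at 40.7 and Sema6b at 36.8, while Sema4f, the third of the semaphorins, stood at 11.3. Efna3 and Efnb3 stood far above the third ephrin, Efnb2, at 5.595. Among the receptors, Epha4 had a mean level of 42.3, Epha7 of 39.9, Unc5a of 34.4, Plxnb2 of 23.5 and Epha5 of 21.9. The levels of neighbours in this order were not tested against each other, and the log2 values of Epha4 (from 4.83 to 5.67) and Epha7 (from 5.10 to 5.70) overlapped over the 6 libraries. Slit1 was the most abundant Slit at 26.4, and Robo2 the most abundant Robo at 10.2, ahead of Slit3 at 5.16. Nrp1 and Plxna1 stood at 14.5 and 12.1. The netrin ligands Ntn1 and Ntn4 were low, at 1.20 and 1.63, below the uncertain main Ntn5 row at 3.64, and so was Dcc, the netrin receptor, at 0.688.

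**Figure D2:**
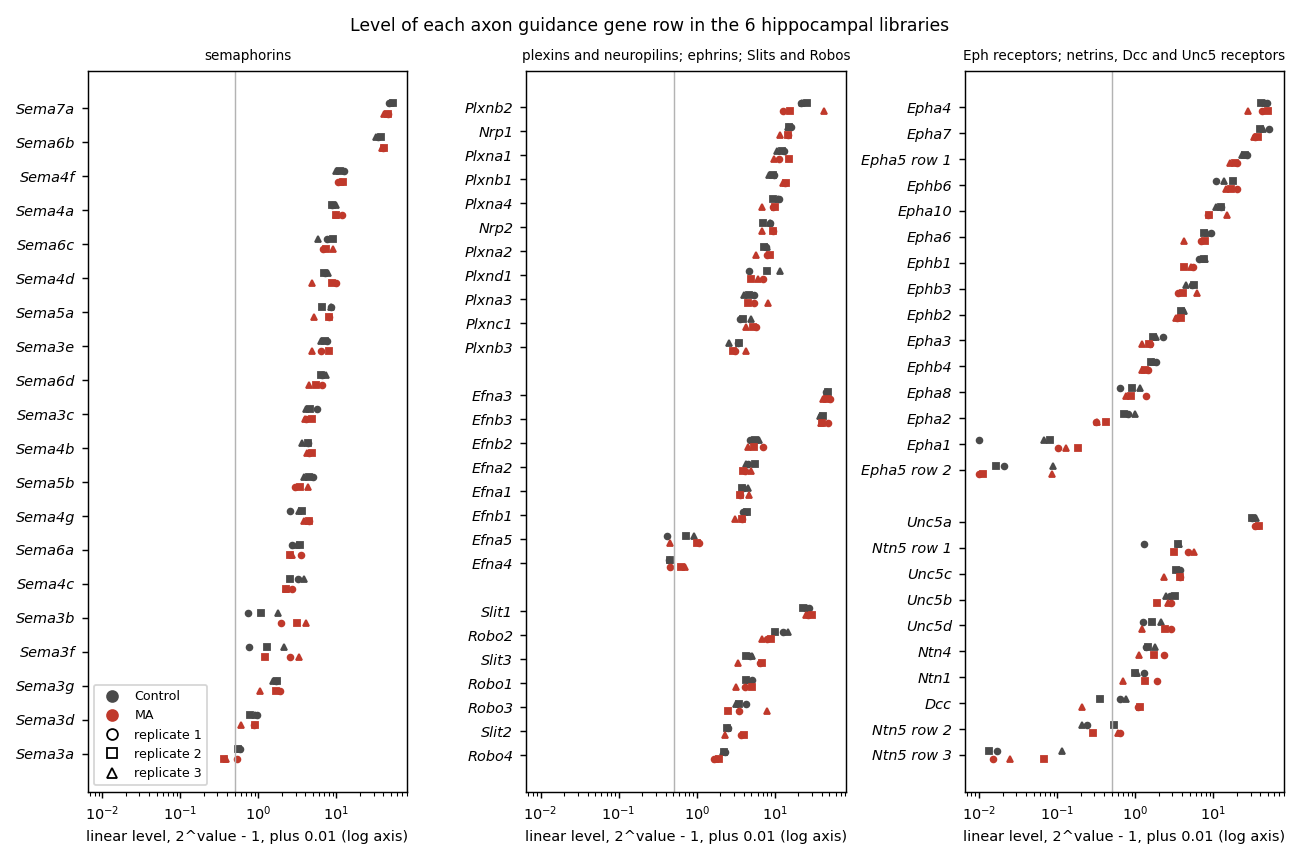
Linear level of every member row in each of the 6 libraries (log axis, 0.01 added so that 0 can be drawn), with 1 point per library, gray for Control and red for MA, and the shape giving the replicate number; the vertical line marks the filter at 0.5. Most rows keep their 6 libraries close together, and Plxnb2 and Robo3 show MA replicate 3 far to the right of the other libraries.

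The other 4 rows fell under the filter and were not tested. Efna4 lay just under it, with log2 values of 0.51, 0.54 and 0.53 in Control and 0.53, 0.69 and 0.77 in MA. Epha1 had log2 values between 0 and 0.10 in Control and between 0.13 and 0.23 in MA, which is close to the floor of the table. A second row of Epha5 under the same identifier reached at most 0.11 in any library, and it is kept apart from the abundant row here. Ntn5 stood on 3 rows with different identifiers, of which the one with at most 0.14 was not tested. As reads of this gene could have been split between the rows, and as it overlaps Sec1 on the other strand, Ntn5 is uncertain. The lowest tested rows were the second Ntn5 row, with a mean linear level of 0.410, and Sema3a, with 0.486. Sema3a had log2 values from 0.62 to 0.66 in Control and from 0.43 to 0.61 in MA.

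Among the receptors for semaphorins, Plxnb1 had the smallest p of all members. Plxnb1 (ENSMUSG00000053646) encodes the plexin that binds Sema4d. The gene spans bases 109095389 to 109119917 (plus strand) of chromosome 9 in GRCm38, and an exon of it overlaps the antisense gene Gm7628. The log2 values were 3.42, 3.38 and 3.25 in Control replicates 1, 2 and 3, and 3.87, 3.91 and 3.78 in MA replicates 1, 2 and 3. Every MA library thus lay above every Control library, with a gap wider than the spread inside either group. The log2 fold change was 0.50 (95% interval 0.29 to 0.71, limma adjusted p = 0.1201), which corresponds to mean linear levels of 9.22 and 13.5. Leaving out MA replicate 3 gave 0.54 with a limma adjusted p of 0.0389, so the call depended on that library. Its ligand Sema4d was 3.01, 2.99 and 3.14 in Control and 3.46, 3.30 and 2.55 in MA. Here the groups overlapped because MA replicate 3 lay lowest of all 6 libraries while the other MA libraries lay highest.

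The other plexins and the neuropilins did not reach an unadjusted p under 0.05. Plxnb2, the most abundant plexin, held log2 values of 4.51, 4.74 and 4.53 in Control and 3.78, 4.07 and 5.45 in MA. MA replicates 1 and 2 lay below all Control libraries and MA replicate 3 above them, so that the mean difference of -0.16 had a 95% interval from -1.07 to 0.75. Without MA replicate 3 the log2 fold change of Plxnb2 was -0.67 (limma adjusted p = 0.0485), without MA replicate 1 it was 0.17, and without MA replicate 2 it was 0.020, so no direction can be given for this gene. Plxna1, a receptor subunit for class 3 and class 6 semaphorins, differed by -0.016 (95% interval -0.39 to 0.35). Nrp1 and Nrp2, the co-receptors of secreted semaphorins, differed by -0.16 (-0.42 to 0.11) and 0.067 (-0.27 to 0.41). Plxnd1, the receptor of Sema3e, spread from 2.50 to 3.67 among the Control libraries alone and overlapped with MA at 2.57 to 3.02.

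Of the 20 semaphorin rows, all were tested, 9 with a higher and 11 with a lower mean in MA. Sema3b, a secreted semaphorin, had the largest difference of all members in size. Its log2 values were 0.78, 1.04 and 1.48 in Control and 1.57, 2.05 and 2.36 in MA. The groups did not overlap, although Control replicate 3 and MA replicate 1 lay within 0.1 of each other. The log2 fold change of Sema3b was 0.89 (95% interval 0.32 to 1.46, limma adjusted p = 0.277), and 1.33 or 1.4 with a pseudocount of 0.1 or 0.01. Sema4g, a transmembrane semaphorin, was 1.84, 2.20 and 2.12 in Control and 2.45, 2.44 and 2.28 in MA, a difference of 0.34 (limma adjusted p = 0.424). Sema6b, a transmembrane ligand of plexin-A receptors, was 5.12, 5.24 and 5.04 in Control and 5.34, 5.37 and 5.29 in MA. Its groups were apart by less than 0.1, and the difference of 0.20 had a limma adjusted p of 0.473. With a correction for transcript length and GC content the difference of Sema6b was 0.14 (limma adjusted p = 0.612), no longer at an unadjusted p under 0.05, and the groups overlapped. Sema7a was lower in each MA library, at 5.56, 5.56 and 5.37 against 5.61, 5.75 and 5.66, a difference of -0.17 (limma adjusted p = 0.558). Sema4c and Sema6d, both transmembrane, differed by -0.29 and -0.26 with groups that overlapped. Sema3f, a ligand of Nrp2, spread from 0.81 to 1.65 in Control and from 1.15 to 2.09 in MA.

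Of the families, the Eph receptors had the largest share of rows on the lower side. Of 13 tested rows, 11 had a lower mean in MA, 4 of them at an unadjusted p under 0.05, and Ephb6 and Epha8 had a higher one. Without Epha2, which could count only as lower, 10 of 12 had a lower mean and 3 were lower at that threshold. Of all tested rows 52.7% had a lower mean and 5.46% were lower at that threshold, or 5.39% without rows of that kind. The median log2 fold change of the Eph receptors was -0.21 and stayed at -0.22 without MA replicate 3. In 7 of the 13 rows every MA library lay below every Control library (Epha5, Ephb1, Epha2, Epha7, Epha3, Ephb4 and Ephb2), a pattern found in 12 of the 67 members, or 17.9%, and in 10.2% of all tested rows. Leaving out Epha2 and the other rows that passed the filter through 1 group only, 6 of 12 Eph receptor rows, 11 of 66 members (16.7%) and 10.1% of all tested rows had this pattern. The opposite pattern was found in 4 members, or 5.97%, none of them an Eph receptor, and in 7.32% of all tested rows. The Eph receptors were singled out after their values had been seen and share the same 6 libraries, so these counts are a description and no test of the family was made.

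Epha5 (ENSMUSG00000029245), a receptor of the ephrin-A ligands, spans bases 84054761 to 84417382 (minus strand) of chromosome 5. Its log2 values were 4.82, 4.72 and 4.61 in Control and 4.40, 4.30 and 4.13 in MA, with every MA library below the lowest Control library. The log2 fold change of Epha5 was -0.44 (95% interval -0.68 to -0.20, limma adjusted p = 0.219), and the mean linear level was 25.4 in Control and 18.5 in MA. Ephb1 (ENSMUSG00000032537), a receptor of the transmembrane ephrin-B ligands, spans bases 101922128 to 102354693 (minus strand) of chromosome 9, where an exon of Gm26846 overlaps it on the other strand. It was 2.93, 3.11 and 3.15 in Control and 2.68, 2.39 and 2.62 in MA, again without overlap. The log2 fold change of Ephb1 was -0.50 (95% interval -0.78 to -0.22, limma adjusted p = 0.219). Epha2 was near the filter, at 0.84, 0.78 and 1.00 in Control and 0.38, 0.50 and 0.40 in MA, and the MA libraries lay below 0.5 on the linear scale. Its difference of -0.45 (limma adjusted p = 0.249) therefore rests on low values in all libraries. With a pseudocount of 0.1 or 0.01 the difference of Epha2 was -1.07 or -1.25. Epha7, with its high level, was 5.70, 5.36 and 5.45 in Control and 5.14, 5.27 and 5.10 in MA, a difference of -0.34 (limma adjusted p = 0.350). The lowest Control and the highest MA library of Epha7 were apart by less than 0.1.

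The remaining Eph receptors did not reach an unadjusted p under 0.05. Epha3 was 1.70, 1.43 and 1.51 in Control and 1.35, 1.31 and 1.15 in MA (-0.28, limma adjusted p = 0.480), and Ephb4, known from vessels, differed by -0.21 (limma adjusted p = 0.556). Epha4, which binds ephrins of both classes, was 5.62, 5.37 and 5.56 in Control and 5.42, 5.67 and 4.83 in MA. Only MA replicate 3 lay below the Control libraries of Epha4, and the difference of -0.20 had a 95% interval from -0.68 to 0.27. Without that library the difference of Epha4 was 0.032, so no direction can be given. Epha6 was 3.36, 3.10 and 3.21 in Control, and MA replicate 2, at 3.15, lay inside that range. MA replicates 1 and 3 of Epha6 lay below it, the latter at 2.38, and the difference was -0.38 (95% interval -0.85 to 0.086), or -0.15 without MA replicate 3. Ephb6, a receptor that lacks kinase activity, spread from 3.57 to 4.24 among the Control libraries and differed by 0.27 (95% interval -0.16 to 0.70). Control replicate 1 was its lowest library, and MA replicates 2 and 3, at 4.14 and 3.95, lay inside the Control range.

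The ligands of these receptors are the ephrins. Of 7 tested ephrins, 4 had a lower and 3 a higher mean in MA, and their log2 fold changes ranged from -0.17 for Efnb1 to 0.12 for Efna5. Without MA replicate 3 the difference of Efnb1 was -0.093, that of Efna5 0.28 and that of Efnb2 0.13, and 3 ephrins had a lower and 4 a higher mean. Efna3 was 5.54, 5.62 and 5.57 in Control and 5.69, 5.56 and 5.39 in MA, a difference of -0.031 (95% interval -0.25 to 0.19). Efnb3 differed by 0.078 (95% interval -0.16 to 0.31) and Efnb2 by 0.0027 (-0.38 to 0.38). For Efnb1 the MA libraries (2.27, 2.25 and 2.04) all lay below the Control libraries (2.28, 2.43 and 2.35), with 2.274 and 2.277 as the nearest pair.

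Among the Slits and Robos, Robo2 was the member with an unadjusted p under 0.05. Robo2 (ENSMUSG00000052516), a receptor of Slits, spans bases 73891839 to 74411825 (minus strand) of chromosome 16. Its log2 values were 3.79, 3.47 and 3.98 in Control and 3.15, 3.32 and 2.95 in MA, and Control replicate 2 came within 0.2 of MA replicate 2. The log2 fold change of Robo2 was -0.60 (95% interval -0.97 to -0.24, limma adjusted p = 0.252), with mean linear levels of 12.6 in Control and 7.89 in MA. Robo4, the endothelial Robo, was 1.71, 1.68 and 1.65 in Control and 1.42, 1.55 and 1.46 in MA, a difference of -0.21 (limma adjusted p = 0.523). Robo1 overlapped between the groups, with a difference of -0.16 (95% interval -0.52 to 0.20) that was -0.0075 without MA replicate 3. Slit1 differed by 0.11 (95% interval -0.12 to 0.35). Slit2 was 1.82, 1.79 and 1.80 in Control and 2.21, 2.34 and 1.72 in MA, so 2 MA libraries lay above the narrow range of the Control libraries and 1 below it. The log2 fold change of Slit2 was 0.29 with all libraries (limma adjusted p = 0.603) and 0.48 without MA replicate 3 (limma adjusted p = 0.0626).

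No netrin, Unc5 receptor or Dcc row reached an unadjusted p under 0.05, and 7 of the 9 tested rows had a higher mean in MA. With all 6 libraries the main Ntn5 row had the largest difference among them (0.57, 95% interval -0.14 to 1.28). It was 1.18, 2.17 and 2.22 in Control and 2.50, 2.04 and 2.73 in MA, so Control replicate 1 lay lowest by far. Without MA replicate 3 the difference of this row was 0.42, below those of Unc5d (0.45) and Dcc (0.43). Unc5a, the most abundant, was 5.02, 5.02 and 5.17 in Control and 5.12, 5.30 and 5.20 in MA (0.14, 95% interval -0.067 to 0.34), with overlapping groups; an exon of Hk3 overlaps Unc5a on the other strand. Unc5c, Unc5b and Unc5d differed by -0.11, -0.15 and 0.21, and without MA replicate 3 by 0.066, -0.18 and 0.45, so no direction can be given for Unc5c. For Unc5b only MA replicate 2, at 1.53, lay below the Control libraries (1.80 to 2.09), so its difference rests on that library. Dcc was 0.71, 0.42 and 0.81 in Control and 1.05, 1.10 and 0.26 in MA, so its MA libraries enclosed the whole Control range.

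**Figure D3:**
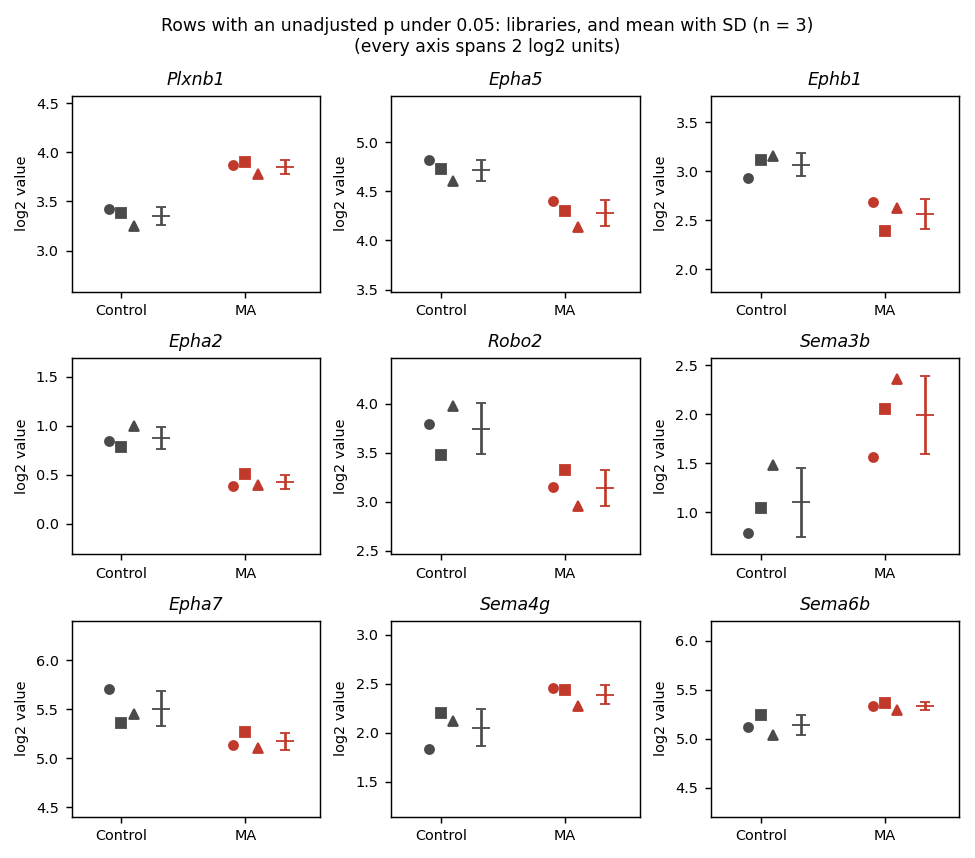
Log2 value in each library (points; circle, square and triangle for replicates 1, 2 and 3) and mean with SD (n = 3) for the 9 members with an unadjusted p under 0.05, Control in gray and MA in red. The groups do not overlap in any panel, as for Plxnb1 with 3.42 at most in Control and 3.78 at least in MA.

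The windows around the annotated start sites of the 3 members with the smallest p are printed here to show what the upstream sequence of 1 member with a higher and 2 with a lower MA mean looks like. Each runs from 250 bases before to 50 bases after the RefSeq start (GRCm38.p6), 5′ to 3′ along the gene's strand, in lower case. Capitals mark the GC box GGGCGG or its reverse complement, the binding element of Sp factors. The Plxnb1 window lies at chr9:109095186-109095485 on the plus strand, the Epha5 window at chr5:84417333-84417632 and the Ephb1 window at chr9:102354644-102354943, both on the minus strand.
Plxnb1: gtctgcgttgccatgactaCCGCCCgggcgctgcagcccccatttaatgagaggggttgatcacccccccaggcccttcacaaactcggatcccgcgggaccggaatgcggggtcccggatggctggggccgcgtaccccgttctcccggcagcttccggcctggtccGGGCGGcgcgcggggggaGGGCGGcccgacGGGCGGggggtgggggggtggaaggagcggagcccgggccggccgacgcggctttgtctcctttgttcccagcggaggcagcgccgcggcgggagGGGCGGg
Epha5: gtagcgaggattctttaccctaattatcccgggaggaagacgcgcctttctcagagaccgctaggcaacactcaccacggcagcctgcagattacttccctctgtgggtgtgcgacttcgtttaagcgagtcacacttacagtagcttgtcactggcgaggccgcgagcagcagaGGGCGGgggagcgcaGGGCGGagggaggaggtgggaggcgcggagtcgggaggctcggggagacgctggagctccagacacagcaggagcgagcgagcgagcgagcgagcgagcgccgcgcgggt
Ephb1: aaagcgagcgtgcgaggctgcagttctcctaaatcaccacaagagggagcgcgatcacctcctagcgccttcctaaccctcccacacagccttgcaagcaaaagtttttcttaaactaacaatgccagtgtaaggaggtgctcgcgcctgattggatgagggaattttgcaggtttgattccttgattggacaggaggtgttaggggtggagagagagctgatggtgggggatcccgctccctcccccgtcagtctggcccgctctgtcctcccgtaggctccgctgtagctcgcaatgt
The Plxnb1 window held 5 GC boxes, the Epha5 window 2 and the Ephb1 window 0, and their GC content was 74.7%, 64.3% and 55.7%. The other 4 motifs were searched on both strands: TGACGTCA (CRE), TGANTCA (AP-1), GCGNGGGCG (EGR, whose GGGCG can overlap a GC box) and TATAAA. None of them was found in these 3 windows. The GC box was found in 35.7% of all 32851 windows in the RefSeq table and in 70.7% of the 75 windows that matched 59 member symbols. The EGR motif was found in 5.55% of all windows and in 18.7% of the member windows. The AP-1 motif was found in 7.81% and 4%, the CRE in 1.79% and 1.33%, and TATAAA in 13.6% and 2.67%. The median GC content was 52.7% over all windows and 64.3% over the member windows. A match describes letters and is not a binding site.

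Outside the receptors and ligands, the same fit was read for a list of other guidance cues and co-receptors and a list of cytoplasmic effectors. Of 35 cues and co-receptors 32 were tested and none passed the adjusted threshold. At an unadjusted p under 0.05, 1 was higher and 2 were lower in MA. Cxcl12, a chemokine that guides migrating neurons, was 4.78, 4.59 and 4.81 in Control and 4.51, 4.35 and 4.36 in MA, a difference of -0.32 (limma adjusted p = 0.329). Rtn4, which encodes the myelin inhibitor Nogo, differed by -0.21 (limma adjusted p = 0.360) and Ntng2, a membrane-anchored netrin-G, by 0.27 (limma adjusted p = 0.440). Of 79 effectors, which relay the receptors to the cytoskeleton, all were tested and none passed the adjusted threshold. At an unadjusted p under 0.05, 3 were higher and 4 lower. Rac3, a small GTPase, was 3.95, 4.06 and 4.09 in Control and 4.33, 4.33 and 4.40 in MA, a difference of 0.32 (limma adjusted p = 0.257). Nck1, an adaptor that binds Robo, Dcc and Eph receptors, differed by -0.29 (limma adjusted p = 0.304), and Rock1, a kinase that acts on the actin cytoskeleton, by -0.33 (limma adjusted p = 0.350). The median log2 fold changes of the lists were -0.041 and -0.0040, against -0.010 over all tested rows. Over all tested rows 4.99% were higher and 5.46% lower at an unadjusted p under 0.05. Without MA replicate 3 both medians turned direction, to 0.060 for the cues and 0.039 for the effectors. The counts were then 8 higher and 3 lower among the cues and 13 higher and 7 lower among the effectors, where 11.9% of all tested rows were higher and 11.4% lower.

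The library of MA replicate 3 stood apart from the others in these genes. It held the lowest of the 6 values in 32 of the 67 tested members and the highest in 10, together 62.7%. Over all 13321 tested rows it held the lowest value in 3964 and the highest in 3415, together 55.4%. The other libraries held an extreme in 11.9% to 34.3% of the members. The median difference of the members from the Control mean was -0.21 in MA replicate 3, -0.0060 in MA replicate 1 and -0.016 in MA replicate 2. The same medians over all tested rows are not given here, so these values cannot be set against the background. In 28 of the 67 members MA replicate 3 differed from the Control mean in the opposite direction to the mean of MA replicates 1 and 2, which is 41.8%, against 49.1% of all tested rows. The members farthest from the other MA libraries, chosen after their values were seen, were Plxnb2, Robo3, Epha10 and Plxna3 on the upper side and Sema4d, Dcc, Slit3 and Epha4 on the lower side. Robo3 was 2.39, 2.17 and 2.05 in Control and 2.15, 1.80 and 3.16 in MA. Slit3 was 2.55, 2.40 and 2.62 in Control and 2.89, 2.98 and 2.13 in MA. Across the 66 members with a known transcript, the deviation of MA replicate 3 from the median of the other libraries went with the GC content of the longest transcript (Pearson's r = 0.523, Spearman's coefficient = 0.599), and over all 13302 such rows r was 0.280. For the other libraries r over the members lay between -0.324 and 0.105. Genes of a library are not independent, and these correlations describe the libraries only. Without MA replicate 3, 2 members passed the adjusted threshold (Plxnb1 and Plxnb2), or 2.99% of the members against 1.93% of all tested rows. At an unadjusted p under 0.05, 10 members were then higher, or 14.9% against 11.9%, and 9 were lower, or 13.4% against 11.4%. With limma's sample quality weights, which gave MA replicate 3 a weight of 0.194, 4 members passed (Plxnb1, Ephb1, Epha5 and Slit2), or 5.97% against 4.4%. With these weights 11 members were higher and 9 lower at an unadjusted p under 0.05, or 16.4% and 13.4%, against 12.9% and 13.4% of all tested rows. Without MA replicate 3 the groups did not overlap in 33 members, or 49.3%, against 42.9% of all tested rows. The direction of the mean difference turned in 11 of the 67 members without this library, or 16.4%, against 18.1% of all tested rows. These were Epha4, Robo3, Sema5a, Sema3e, Sema3g, Sema6c, Plxna1, Plxna2, Plxnb3, Efna3 and Unc5c. In another 30 members the difference moved by over 1.5 times, among them Nrp1 (from -0.16 to -0.044), Nrp2 (from 0.067 to 0.21), Sema6d (from -0.26 to -0.15), Sema7a (from -0.17 to -0.11) and Efnb1 (from -0.17 to -0.093). In the other 26, which include all 9 members with an unadjusted p under 0.05, it stayed within 1.5 times. These 9 were picked by a fit that included MA replicate 3, which favors such stability, so it is no separate support for them. With the correction for length and GC content, 4 members were higher and 8 lower at an unadjusted p under 0.05, or 6.06% and 12.1% of 66, against 5.66% and 5.53% of all rows. The 4 higher members were then Plxnb1, Sema3b, Sema4g and Slit2, and Robo4, Sema6d and Sema5b joined the 5 lower ones. Epha2, which could count only as lower, was among the lower members without MA replicate 3, with the weights and with this correction. These shares were not recounted without it. The part of this library, and of GC content, in the differences was not tested.

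**Figure D4:**
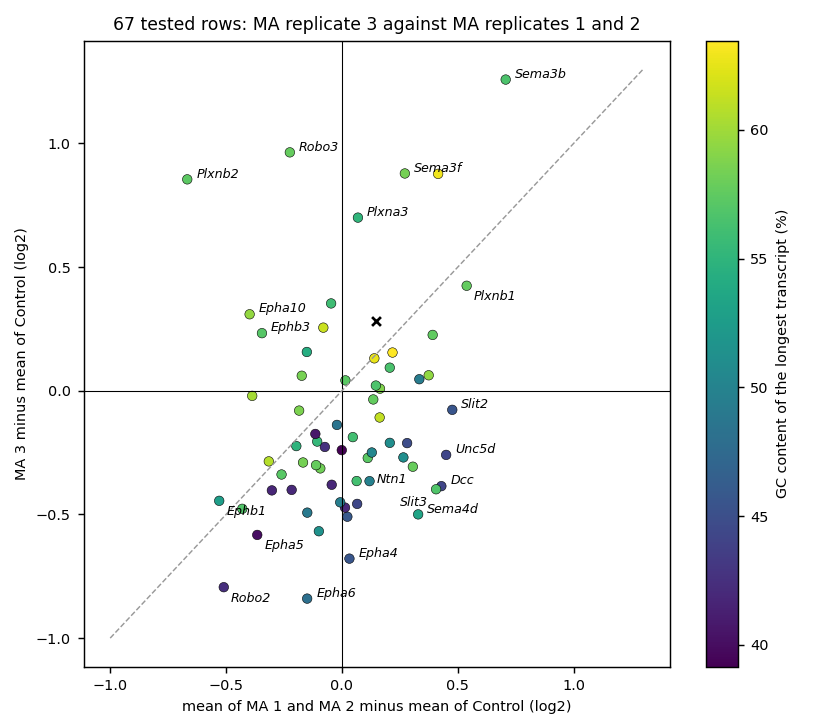
Each tested member by its log2 difference from the Control mean in MA replicates 1 and 2 (mean, x axis) and in MA replicate 3 (y axis), colored by GC content of the longest transcript; the dashed line marks equality and the cross is an Ntn5 row without a GC value. Plxnb2 and Robo3 lie in the upper left, Sema4d, Slit3 and Dcc in the lower right, and Plxnb1, Epha5, Ephb1 and Robo2 keep their direction in all 3 MA libraries. Plxnb1, Epha5, Ephb1 and Robo2 were picked by a small p with all libraries, which favors such agreement.

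Markers of the tissue and of neighbouring tissues were read beside these results. The 8 hippocampal neuron markers were all tested, with Snap25 as the most abundant, and their summed linear level was 2867, 2731 and 2966 in Control and 3058, 3275 and 2318 in MA. Of the 8, 5 had a lower mean in MA, 0 passed the adjusted threshold of limma, and 1, Neurod6, was lower at an unadjusted p under 0.05. Neurod6, a transcription factor of pyramidal neurons, was 6.49, 6.26 and 6.08 in Control and 5.84, 5.97 and 5.74 in MA, a difference of -0.43 (limma adjusted p = 0.290). Its part in the lower values of the Eph receptors and Robo2 was not tested. Choroid plexus markers differed between the groups. All 14 listed markers had a higher mean in MA, and 6 of them passed the adjusted threshold (limma). Slc4a5, Prlr and F5 passed the filter only through the MA libraries and could be tested only as higher. Of the other 11 markers 11 had a higher mean and 5 passed the adjusted threshold. Among these 5, Aqp1 and Cldn2 had only replicate 3 of Control past the minimum, so they too needed the MA libraries to pass the filter. Their summed level was 74.2, 183 and 429 in Control and 1798, 2338 and 5119 in MA, most of it from Ttr, and no marker of this list was below 0.5 on average. Sema3b, 1 of the 67 tested members, followed the same order, from Control replicate 1 as the lowest to MA replicate 3 as the highest. It was picked after its values were seen, and the share of all tested rows with this order is not given. Of 12 meningeal and vascular fibroblast markers 11 were tested and Lama1 was below the filter. Their summed level was 48.8, 46.6 and 58.3 in Control and 91.5, 103 and 115 in MA, without overlap. Igf2, the most abundant, and Dcn were higher at an unadjusted p under 0.05, by 1.259 and 1.305, and 0 of the 11 passed the adjusted threshold of limma. No other marker of this list reached an unadjusted p under 0.05 in either direction. Of the 11, 9 had a higher mean in MA and the median log2 fold change was 0.061, so the gap in the sum does not describe the whole list. The summed level of 10 endothelial markers was 217, 233 and 233 in Control and 270, 241 and 243 in MA, also without overlap. Only Cldn5 and Slco1a4 reached an unadjusted p under 0.05 (limma), both higher, by 0.30 and 0.77, and 0 of the 10 passed the adjusted threshold. Although 9 of the 10 means were higher, the median log2 difference was 0.039, so this gap too does not describe the whole list. Thalamic markers were also unequal, with summed levels of 62.7, 57.7 and 75.5 in Control and 121, 145 and 53.6 in MA, so that MA replicates 1 and 2 stood above the other 4 libraries. Their most abundant gene was Adarb1, and 11 of the 12 had a higher mean in MA, 0 of them past the adjusted threshold of limma and 3 at an unadjusted p under 0.05. The other thalamic marker, Rorb, was lower in every MA library (-0.35, limma adjusted p = 0.435). In 8 of the 67 members (Slit2, Slit3, Sema4d, Dcc, Ntn1, Unc5c, Unc5d and Nrp2) MA replicates 1 and 2 lay above every Control library and MA replicate 3 below every one, which is 11.9%, against 8.82% of all tested rows. The part of choroid plexus, meningeal, vascular or thalamic tissue in the values of the members was not tested. Red blood cell markers were higher as well, at 1599, 2024 and 1911 in Control and 4378, 3319 and 3849 in MA, with Hba-a2 as the most abundant, 5 of the 6 tested and 3 of these past the adjusted threshold. Within the hippocampus, CA1 markers had a median log2 fold change of -0.27 and CA3 markers of 0.22, with 0 of 7 and 0 of 8 past the adjusted threshold of limma, 2 CA1 markers lower and 2 CA3 markers higher at an unadjusted p under 0.05.

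**Figure D5:**
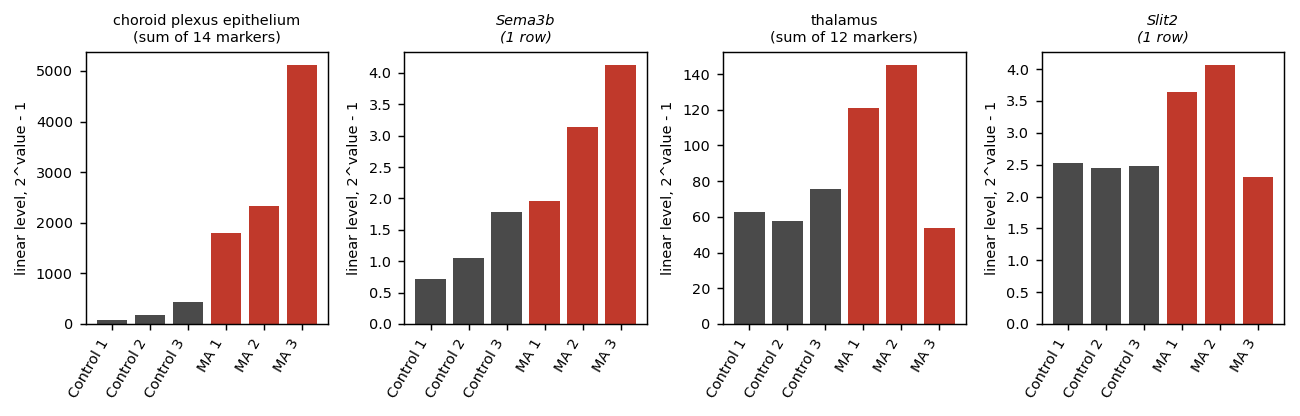
Linear level in each of the 6 libraries (bars from 0, Control in gray, MA in red) for the summed 14 choroid plexus markers, Sema3b, the summed 12 thalamic markers and Slit2. The choroid plexus sum and Sema3b rank the 6 libraries in the same order. The thalamic sum and Slit2 are highest in MA replicates 1 and 2 and lowest in MA replicate 3. Both members were picked after their values were seen.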

How the data were processed

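The deposited table holds 1 value per gene row and sample in 6 columns, all of which were matched to a sample by name. According to the paper, the authors aligned reads with Hisat2, counted them with featureCounts and scaled them by gene length to FPKM, whereas the submitters' processing notes name Bowtie 0.12.2 and the builds mm8 and mm9. The deposited values were read as log2 of the scaled value plus 1, since they run from 0 to 12.3 and have the same maximum in all libraries. The authors' log transform and normalization between libraries are not described in the sources used here, and the offset is inferred. Rows with a linear value of at least 0.5 in at least 3 libraries were tested with limma 3.58.1 in R 4.3.3 (trended eBayes, no covariate). Intervals are limma's. An exact two-sided permutation test of 3 against 3 libraries cannot go below 0.1, and that value was reached by every member whose groups did not overlap. The test was also run on simulated data. Members, gene lists and tests were chosen with earlier results of these data known. Members were named if they had an adjusted p under 0.05, 1 of the 15 smallest p-values or 1 of the 3 highest levels of their family, or as the partner of a named member; other members were named after their values were seen. Of each other list the 3 genes with the smallest p were named. Coordinates are from GENCODE M21 (GRCm38) by Ensembl identifier and serve for location only. The alternatives were other filters, pseudocounts, scalings and variance models, sample weights, the replicate number as a block, leaving out each library, and, added after seeing the data, a lowess correction for exonic length and GC content and a recount without rows that passed the filter through 1 group only. Of 18 marker lists, those not given in the report differed by a median log2 fold change between -0.264 (oligodendrocyte) and 0.252 (Cajal-Retzius cell), with 0 genes past the adjusted threshold of limma.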

Additional observations from a re-analysis of the deposited data

How the results depend on the processing

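MA replicate 3 and its weight moved the counts most. With limma sample weights, 4 members passed the adjusted threshold in place of 0, 11 were higher and 9 lower at an unadjusted p under 0.05 in place of 4 and 5, and 1 gene of the other lists passed the adjusted threshold in place of 0. Leaving out 1 library at a time gave 0 to 2 members past the adjusted threshold, 2 to 10 higher, 5 to 9 lower and 17 to 33 without overlap in place of 16, with the upper end of each range reached without MA replicate 3; the 2 higher members were left without Control replicate 1 or MA replicate 1. The difference of Plxnb2 ran from -0.668 to 0.167 and was 0.0205 without MA replicate 2. Among members with a mean linear value of at least 5, 2 were higher and 7 did not overlap, since fewer members were tested. The correction for length and GC content, added after seeing the data, gave 8 lower (12.1% against 5.53% of all rows) and 4 higher, with Slit2 in place of Sema6b. The 8 include Epha2, which could count only as lower, and were not recounted without it. With the replicate number as a block, 0 members passed the adjusted threshold, 2 were higher and 5 lower. Over all tested rows, the deviations of same-numbered samples from their group means had correlations of -0.197, -0.242 and -0.337. As deviations from a mean of 3 libraries are tied to each other within a group, these values cannot decide whether same-numbered samples were paired. Where not given here, the cause of a change was not tested. The median log2 fold change of the members moved by less than 1 SD between libraries but turned direction, to 0.015 without MA replicate 3 and 0.0296 with sample weights. Rows that passed the filter through 1 group only, left out after seeing the data, changed the lower members to 4 and those without overlap to 15. In all, 92 values of group comparisons stayed within 1.5 times or 1 SD, and 14 moved further. The 92 include the count of 0 members past the adjusted threshold wherever it stayed at 0. Single members were followed for the 15 smallest p-values and Plxnb2 only: 273 values kept direction and side of the threshold, 5 passed it and 2 turned direction, both for Plxnb2. Over all 67 tested members, 11 turned direction without MA replicate 3 and 12 with sample weights. Depth is unknown, so counting error could not be set for low genes.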
